A study of Mus musculus with 6 samples.

Results

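The genes described here are Fabp7, Slc1a3, Acsbg1 and Aqp1, 4 of the 32285 genes in the table. They were picked as glial-type genes, although Aqp1 is best known from other cells. They were selected on their log2 fold change in this same comparison, as genes with very much lower transcript levels after exposure to a lactate dehydrogenase inhibitor. Their difference between the groups is therefore a description and carries no test. Transcripts were measured by bulk RNA sequencing in 6 libraries of radial glial progenitors, the dividing stem cells of the embryonic cortex. The cells came from wild-type mouse neocortex at stage E10.5, were dissociated and cultured, and were exposed for about 24 h either to GSK2837808A, a lactate dehydrogenase inhibitor (3 libraries, GSK), or to the solvent DMSO alone (3 libraries, DMSO). The inhibitor dose is given as 100 mM, which is very high for a culture medium and could not be checked here. The sort took about 1000 DAPI-negative cells per library by the surface protein CD133, encoded by Prom1, and their RNA was amplified by Smart-seq2. The comparison asks how these progenitors differ in transcript levels under exposure to this inhibitor, and lactate itself is not among the data.

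Radial glia share several genes with the astrocytes that arise from them later. Fabp7 encodes brain lipid binding protein, which carries long chain and polyunsaturated fatty acids inside the cell. Acsbg1 encodes an enzyme that joins long and very long chain fatty acids to coenzyme A, the step that commits them to lipid synthesis or oxidation. Slc1a3 encodes GLAST, which takes up glutamate together with sodium and is a classical radial glial and astrocyte marker. Aqp1 encodes a water channel, best known from red blood cells, kidney and choroid plexus. Fabp7 is a known target of Notch signalling and of the transcription factor PAX6.

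The 4 genes lie on different chromosomes, and their upstream sequences are shown because the transcripts were low together in GSK libraries. The letters are from RefSeq on GRCm38.p6, 5′ to 3′ on the gene's strand, within the 250 bases before the RefSeq start. For Fabp7 the printed letters end at the base before the earlier GENCODE start, while its motifs and CpG ratio were taken over all 250 bases. Capitals mark letters that match any of 6 motifs searched on both strands.
Fabp7 (chr10:57784673-57784880, plus strand): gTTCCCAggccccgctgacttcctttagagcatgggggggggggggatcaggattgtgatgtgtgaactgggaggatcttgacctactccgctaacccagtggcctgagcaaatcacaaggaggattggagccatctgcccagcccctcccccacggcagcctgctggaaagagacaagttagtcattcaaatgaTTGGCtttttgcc
Slc1a3 (chr15:8710808-8711057, minus strand): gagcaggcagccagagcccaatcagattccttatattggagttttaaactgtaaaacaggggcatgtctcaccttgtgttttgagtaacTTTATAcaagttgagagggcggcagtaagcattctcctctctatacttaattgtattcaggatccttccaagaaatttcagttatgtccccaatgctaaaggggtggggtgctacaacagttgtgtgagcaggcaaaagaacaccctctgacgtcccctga
Acsbg1 (chr9:54661886-54662135, minus strand): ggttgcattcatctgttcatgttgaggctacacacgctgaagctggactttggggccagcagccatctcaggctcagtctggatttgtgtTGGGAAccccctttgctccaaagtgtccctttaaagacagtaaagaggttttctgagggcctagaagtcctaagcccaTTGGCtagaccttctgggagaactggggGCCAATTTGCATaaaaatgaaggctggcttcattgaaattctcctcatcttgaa
Aqp1 (chr6:55336049-55336298, plus strand): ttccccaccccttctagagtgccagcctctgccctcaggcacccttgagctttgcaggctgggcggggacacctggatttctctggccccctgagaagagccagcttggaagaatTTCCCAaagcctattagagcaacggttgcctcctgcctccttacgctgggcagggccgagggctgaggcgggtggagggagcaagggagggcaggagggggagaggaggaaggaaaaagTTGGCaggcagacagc
The RBPJ core TGGGAA, the DNA letters bound by the Notch effector, was present in 3 of the 4 windows, those of Fabp7, Acsbg1 and Aqp1, and in 21.6% of all 32851 RefSeq windows of that length. The nuclear factor I motif TTGGC was present in the same 3 windows and in 41.5% of all. The POU octamer ATGCAAAT was found upstream of Acsbg1 alone, 50 to 43 bases before the start, where it shares 1 base with a TTGGC match. That octamer occurs in 1.601% of all windows. TATAAA was found upstream of Slc1a3 (12.4% of all windows), 161 to 156 bases before the start, and ACAAAG (16.5%) and TAATTA (4.84%) were in none of the 4. For CpG dinucleotides, the observed to expected ratios were 0.214 for Fabp7, 0.160 for Slc1a3, 0.0685 for Acsbg1 and 0.212 for Aqp1. All 4 lay below the median of 0.374 over all windows, at percentiles 31.7, 23.8, 10.1 and 31.5 in that order. Ratios such as those of Fabp7 and Aqp1 are thus common. Such matches are descriptions of the letters and show no binding.

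The libraries held between 7187089 and 10224348 reads, recovered from the authors' normalised values. Of 15073 genes averaging 10 or more normalised reads, 36.1% passed the test (limma, Benjamini-Hochberg adjusted p below 0.05), 17.0% higher and 19.1% lower in GSK. These shares are the background for every list count below. The labels do not tie replicates to cultures or animals of their own, and a p-value then covers only the variation among the 6 libraries, which may be technical. The labelled cell type was checked against its markers. All 16 early radial glial markers were detected in every library, and their summed level was 27100 to 28798 normalised reads in DMSO and 14841 to 17618 in GSK libraries. Transcripts of other cells were present too: the 12 mesenchymal markers summed to 27918 to 35333 in DMSO and 17494 to 26981 in GSK libraries, led by Col3a1. In bulk samples, fewer cells of a type and less RNA per cell cannot be told apart.

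Fabp7 had the most normalised reads of the 4 (chromosome 10, 57784881 to 57788450, GRCm38). Its levels were 3292, 2704 and 2887 normalised reads in the DMSO libraries and 163, 223 and 272 in the GSK libraries. The groups lay far apart: the highest GSK value was 10.0% of the lowest DMSO value. The mean was 2961 ± 301 against 219 ± 54.6 (SD, n = 3 per group), a 13.5-fold lower level and a log2 fold change of -3.78 on the log2(value + 1) scale.

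Slc1a3 (chromosome 15, 8634124 to 8710764) stood at 583, 569.7 and 563 normalised reads in DMSO and at 75.1, 66.2 and 45.6 in GSK libraries. The DMSO libraries were almost alike, with a highest value 1.04 times the lowest, whereas the GSK libraries spread 1.65-fold. The mean was 572 ± 10.2 against 62.3 ± 15.1 (SD, n = 3), which is 9.18-fold lower in GSK with a log2 fold change of -3.21, the smallest difference of the 4.

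Acsbg1 (chromosome 9, 54604877 to 54661870) had 276, 335 and 246 normalised reads in DMSO and 13.7, 23.0 and 18.04 in GSK libraries. The difference was the largest of the 4, from 286 ± 45.2 to 18.2 ± 4.66 (SD, n = 3), or 15.7-fold with a log2 fold change of -3.92. Few reads stood behind the GSK values, namely 12, 25 and 17. The exact 95% Poisson intervals of 12 reads (6.20 to 20.96) and 25 reads (16.2 to 36.9) overlap, so the order of the GSK libraries was not resolved for Acsbg1. Such intervals cover counting error only.

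Aqp1 (chromosome 6, 55336432 to 55348555) had 227, 269 and 324 normalised reads in DMSO and 26.2, 13.8 and 15.9 in GSK libraries. All 3 GSK values again lay below all DMSO values, with means of 274 ± 48.7 and 18.6 ± 6.62 (SD, n = 3), a 14.7-fold lower level and a log2 fold change of -3.84. Here too the GSK values rest on 23, 15 and 15 reads.

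**Figure D1:**
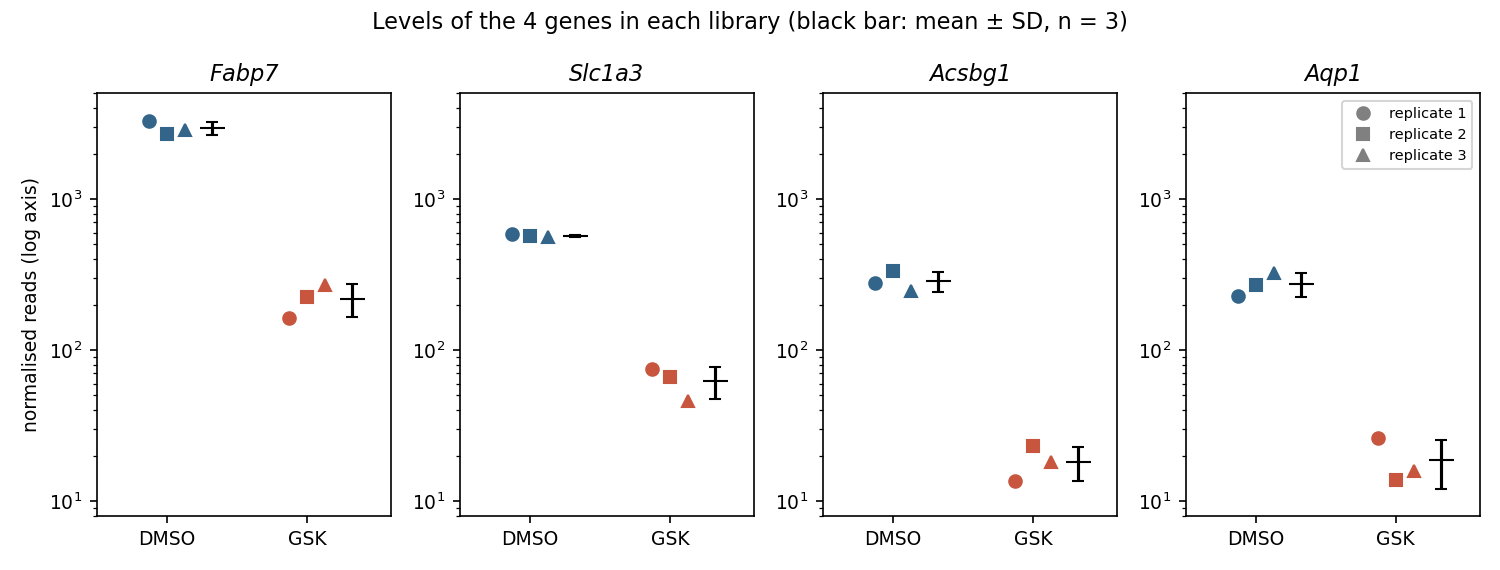
Normalised reads of the 4 genes in each library on a log axis, with symbols for replicates and a black bar for mean ± SD (n = 3). In all 4 panels every GSK library lies below every DMSO library, with GSK means of 219 for Fabp7, 62.3 for Slc1a3, 18.2 for Acsbg1 and 18.6 for Aqp1.

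Among the 15073 tested genes ordered by log2 fold change from the lowest, Acsbg1 was at rank 3, Aqp1 at rank 4, Fabp7 at rank 5 and Slc1a3 at rank 17. A log2 fold change of -3 or lower was seen for 32 tested genes. The rule for choosing the 4 had no fixed limit, and 24.4% of tested genes had all GSK values below all DMSO values, so the separation of the groups was fixed by the choice.

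Per kilobase of annotated exon, Fabp7 was again the highest, at 2369 ± 241 normalised reads per kilobase under DMSO and 175 ± 43.7 under GSK (SD, n = 3). Its level in GSK libraries thus stayed above the DMSO levels of the other 3, which were 104 ± 18.5 for Aqp1, 79.3 ± 12.5 for Acsbg1 and 67.0 ± 1.20 for Slc1a3. The SD ranges of Aqp1 and Acsbg1 in DMSO overlapped, as did those of Acsbg1 and Slc1a3. In GSK libraries Slc1a3 (7.30 ± 1.77), Aqp1 (7.09 ± 2.52) and Acsbg1 (5.06 ± 1.29) did not differ beyond their spread. Among 15065 tested genes with a length, the DMSO level of Fabp7 per kilobase was at percentile 99.3, and its GSK level at percentile 85.9. The other 3 went from percentiles 64.7 to 75.5 in DMSO to 8.81 to 13.1 in GSK libraries. Exon length was counted over all annotated transcripts, which can understate the level of a gene with many isoforms, such as Slc1a3 with its 8 transcripts.

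The 4 genes were set against other progenitor genes of the same libraries. Since the 4 were selected on very low fold changes, lower ratios were fixed by the choice and are given as a description. Prom1, the gene of the sort marker, fell from 1183 ± 72.2 to 591 ± 96.3 normalised reads (SD, n = 3), a log2 fold change of -1.01 with a limma adjusted p of 7.61e-06. Set against Prom1 in the same library, in normalised reads and not per length, Fabp7 stood at 269%, 221% and 263% in DMSO and at 23.5%, 38.7% and 54.1% in GSK libraries. The ratio was thus 6.47-fold lower in GSK for Fabp7, 4.63-fold for Slc1a3, 7.58-fold for Acsbg1 and 7.50-fold for Aqp1. Against Sox2, a transcription factor gene of neural stem cells with a log2 fold change of -1.46, the ratios were 3.16-fold (Slc1a3) to 5.75-fold (Acsbg1) lower. Against Pax6 and against Nes, which encodes the filament protein nestin, they lay between 3.53-fold and 6.69-fold. Sox2 and Nes were picked after their values were seen.

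**Figure D2:**
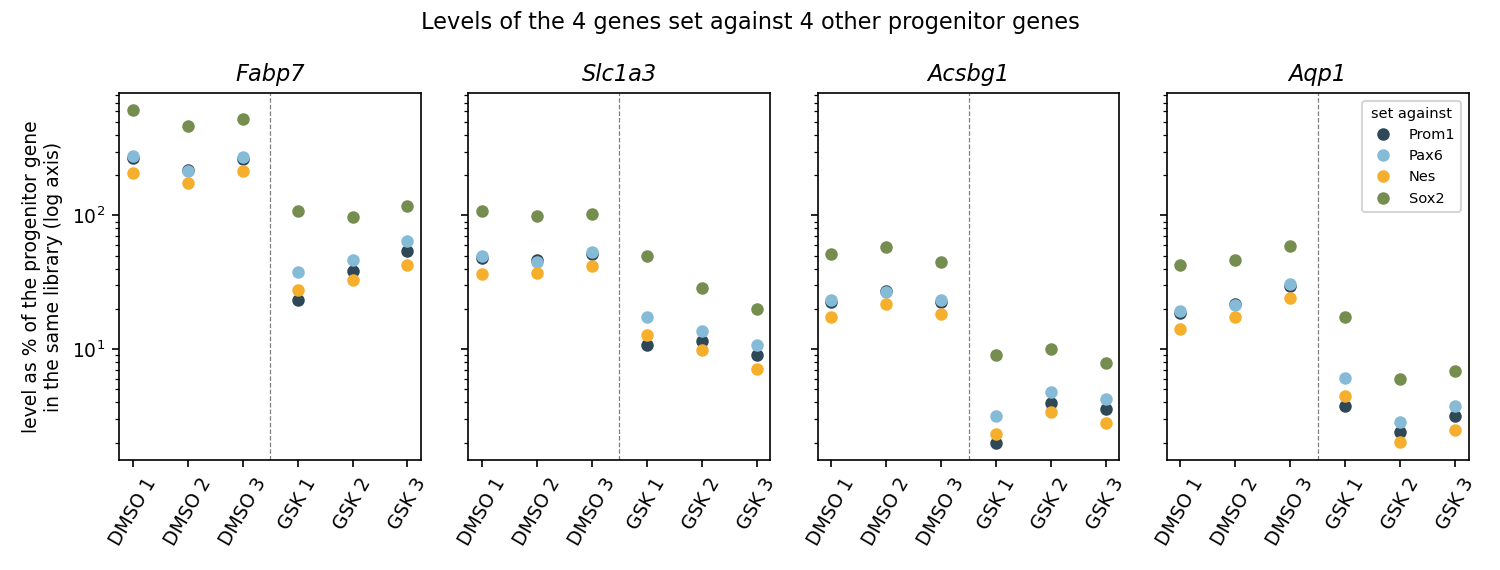
Level of each of the 4 genes as a percentage of Prom1, Pax6, Nes or Sox2 in the same library, on a log axis, with DMSO libraries left and GSK libraries right of the dashed line. Every ratio is lower in the GSK libraries, by 3.16-fold for Slc1a3 against Sox2 up to 7.58-fold for Acsbg1 against Prom1.

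Fabp7 was set beside the other genes of its family. Of 14 other genes for fatty acid, retinol and retinoic acid binding proteins, 5 were abundant enough to test, 3 of them fell and none rose (limma; also 0 at an unadjusted p below 0.05, by edgeR and by DESeq2). The median log2 fold change of the 5 was -0.49, against 0.01 over all 15073 tested genes. Fabp5, which encodes the epidermal type fatty acid binding protein, fell from 2057 ± 82.8 to 1410 ± 277 (SD, n = 3; log2 fold change -0.56, limma adjusted p = 0.00460). Per kilobase, Fabp5 stood below Fabp7 in DMSO libraries (577 ± 23.2 normalised reads against 2369 ± 241) and above it in GSK libraries (395 ± 77.8 against 175 ± 43.7). The exon length counted over all annotated transcripts was 3567 bases for Fabp5 and 1250 for Fabp7, which may understate Fabp5 per kilobase. In normalised reads the DMSO gap was smaller (2057 against 2961), and Fabp5 was again the higher in GSK libraries (1410 against 219). Crabp1, a retinoic acid binding protein gene, also fell, with a log2 fold change of -0.49 and a limma adjusted p of 0.0236, which became 0.148 without DMSO replicate 3 and 0.0637 without GSK replicate 1. Crabp2 (log2 fold change -0.23, adjusted p = 0.270) and Fabp3 (0.52, adjusted p = 0.164) did not pass the test with limma, though Crabp2 did without GSK replicate 3 (adjusted p = 0.0442).

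Slc1a3 was set beside the 6 other SLC1 transporter genes. None of the 4 other tested members of the family rose or fell (limma; 0 as well at an unadjusted p below 0.05, by edgeR and by DESeq2), and their median log2 fold change was -0.14. Slc1a2, which encodes GLT-1, the main glutamate transporter of mature astrocytes, had 148, 156 and 131 normalised reads in DMSO and 157, 123 and 104 in GSK libraries. The groups overlapped, and the 95% interval of its log2 fold change was -0.57 to 0.18. The interval was -0.05 to 0.55 for Slc1a4 and -0.42 to 0.17 for Slc1a5, both transporters of neutral amino acids. Per kilobase, Slc1a2 stood at 11.04 ± 0.980 normalised reads in DMSO libraries, below Slc1a3 at 67.0 ± 1.20, and at 9.75 ± 2.05 in GSK libraries, where Slc1a3 was at 7.30 ± 1.77. In DMSO libraries the 2 genes were thus far apart, and in GSK libraries their SD ranges overlapped. Slc1a1, the neuronal type transporter, and Slc1a7 were too low to test.

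Other genes that make, break down or move glutamate and glutamine are described beside Slc1a3. Of 25 such genes 22 were tested, 4 rose, 5 fell and the median log2 fold change was -0.01, shares near those of all tested genes (17.0% higher and 19.1% lower). Glul, which encodes the glutamine synthetase that astrocytes use on the glutamate they take up, stood at 711, 727 and 716 normalised reads in DMSO and at 602, 829.7 and 689.7 in GSK libraries. The GSK values lay on both sides of the DMSO values (log2 fold change -0.03, limma adjusted p = 0.870). Slc38a5, a glutamine transporter gene, rose from 8.50, 12.03 and 1.86 to 100.1, 84.5 and 122 normalised reads (log2 fold change 3.85, limma adjusted p = 1.08e-05). Its DMSO libraries, with 8, 14 and 2 reads, stood in the same order as for Alas2, a red blood cell marker (252, 320 and 95.7 in DMSO). Alas2 was also higher in GSK libraries (1996, 2826 and 2556), but there the order of the libraries differed from that of Slc38a5. Whether the Slc38a5 reads came from red blood cells was not tested. Gad1 (log2 fold change 1.77) and Gad2 (1.09), which encode the enzymes that turn glutamate into GABA, and Aldh4a1 rose as well. Slc25a13, a mitochondrial carrier of aspartate and glutamate, fell with a log2 fold change of -1.11 (limma adjusted p = 9.79e-05), as did Prodh, Slc38a2, Slc38a3 and Oat. The number that fell was 2 without DMSO replicate 1 or without GSK replicate 2 and 3 without DMSO replicate 2.

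Acsbg1 was set beside 20 other acyl-CoA synthetase genes, of which 17 were tested, 6 rose and 4 fell, with a median log2 fold change of 0.18. Over all tested genes 17.0% were higher and 19.1% lower in GSK. Acss1, which encodes the mitochondrial acetyl-CoA synthetase, fell from 912 ± 102 to 212 ± 15.4 normalised reads (SD, n = 3; log2 fold change -2.09, limma adjusted p = 5.43e-10). Its DMSO values were 935, 1000.1 and 800.1 and its GSK values 224, 195 and 218. Acsf2, Acsm3 and Acsl5 also fell. Acss2, the cytosolic counterpart of Acss1, rose with a log2 fold change of 1.04 (adjusted p = 2.19e-05). Acsl4, which prefers polyunsaturated fatty acids such as arachidonate, rose from 289 ± 18.1 to 582 ± 22.4 (log2 fold change 1.01, adjusted p = 4.90e-06), and Acsl3 rose with a log2 fold change of 0.68 (adjusted p = 0.00166). Acsl6, the long chain synthetase best known from brain, had a log2 fold change of -0.31 (adjusted p = 0.192), and Acsbg2, the closest relative of Acsbg1, was too low to test at 3.56 ± 1.52 and 2.58 ± 2.34 normalised reads.

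Genes further along fatty acid metabolism are described beside Fabp7 and Acsbg1. Among 17 tested genes of elongation and desaturation, 7 rose and 2 fell, Hacd1 and Elovl2, and the median log2 fold change was 0.27. The stearoyl-CoA desaturase gene Scd1 rose from 443 ± 70.1 to 961 ± 54.5 normalised reads (log2 fold change 1.13, limma adjusted p = 2.24e-06), and Fads2, the delta-6 desaturase gene, rose with a log2 fold change of 1.07 (adjusted p = 3.34e-06). Among 21 tested genes for PPAR and RXR receptors and their targets in fatty acid oxidation, 9 rose and none fell (limma; 0 at an unadjusted p below 0.05, by edgeR and by DESeq2), with a median log2 fold change of 0.26. Without GSK replicate 1, 1 of them fell. Ucp2, a mitochondrial carrier gene, rose from 199 ± 23.2 to 929 ± 136 (log2 fold change 2.21, adjusted p = 6.67e-10). Plin2, which encodes a lipid droplet coat protein, rose less (log2 fold change 0.64, adjusted p = 0.000597).

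Aqp1 had the highest mean level per kilobase of the aquaporin genes in DMSO libraries, at 104 ± 18.5 normalised reads, followed by Aqp11 at 9.90 ± 1.57. Of 11 other aquaporin genes 3 were tested, 2 rose and none fell (limma; 0 at an unadjusted p below 0.05, by edgeR and by DESeq2). Aqp8 had 5.31, 14.6 and 3.72 normalised reads in DMSO and 38.7, 48.7 and 64.7 in GSK libraries (log2 fold change 2.71, limma adjusted p = 3.66e-05). Aqp3 had 3.19, 10.3 and 0.929 in DMSO and 28.4, 27.6 and 47.7 in GSK libraries (log2 fold change 2.94, adjusted p = 0.000258). Per kilobase, Aqp8 (32.1 ± 8.31) and Aqp3 (18.9 ± 6.24) thus had higher mean levels than Aqp1 (7.09 ± 2.52) in GSK libraries. Both have means under 100 and drop out of the test where a mean of at least 100 is asked for. For both, the DMSO libraries, with 1 to 17 reads, stood in the same order as for the red blood cell marker Alas2 (252, 320 and 95.7 in DMSO). In GSK libraries neither gene followed the order of Alas2 (1996, 2826 and 2556). Whether the Aqp8 and Aqp3 reads came from red blood cells was not tested. Aqp11 was not called, at a log2 fold change of -0.30 (adjusted p = 0.249). Aqp4, the main water channel of mature astrocytes, was too low to test, at 8.75 ± 4.43 and 9.98 ± 5.37.

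Genes that move ions or set cell volume were described beside Aqp1, because water follows salt. Of 29 such genes 26 were tested, 4 rose and 9 fell, and the median log2 fold change was -0.15. Over all tested genes 17.0% were higher and 19.1% lower in GSK. Mlc1, whose product takes part in volume regulation of astrocytes and which is also among the glial markers, fell from 176 ± 12.1 to 29.2 ± 5.53 (log2 fold change -2.57, adjusted p = 9.80e-09). The potassium chloride cotransporter gene Slc12a7 fell with a log2 fold change of -0.91 (adjusted p = 2.96e-05) and the sodium potassium chloride cotransporter gene Slc12a2 with one of -0.72 (adjusted p = 0.00251). Atp1b1, a sodium pump beta subunit, rose with a log2 fold change of 0.96 (adjusted p = 0.000128). Lrrc8a and Car2 also rose. For Car2, a carbonic anhydrase gene with high levels in red blood cells, the log2 fold change was 3.90 (adjusted p = 0.0128), and the adjusted p was 0.0567 without GSK replicate 2 and 0.0520 without GSK replicate 3.

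**Figure D3:**
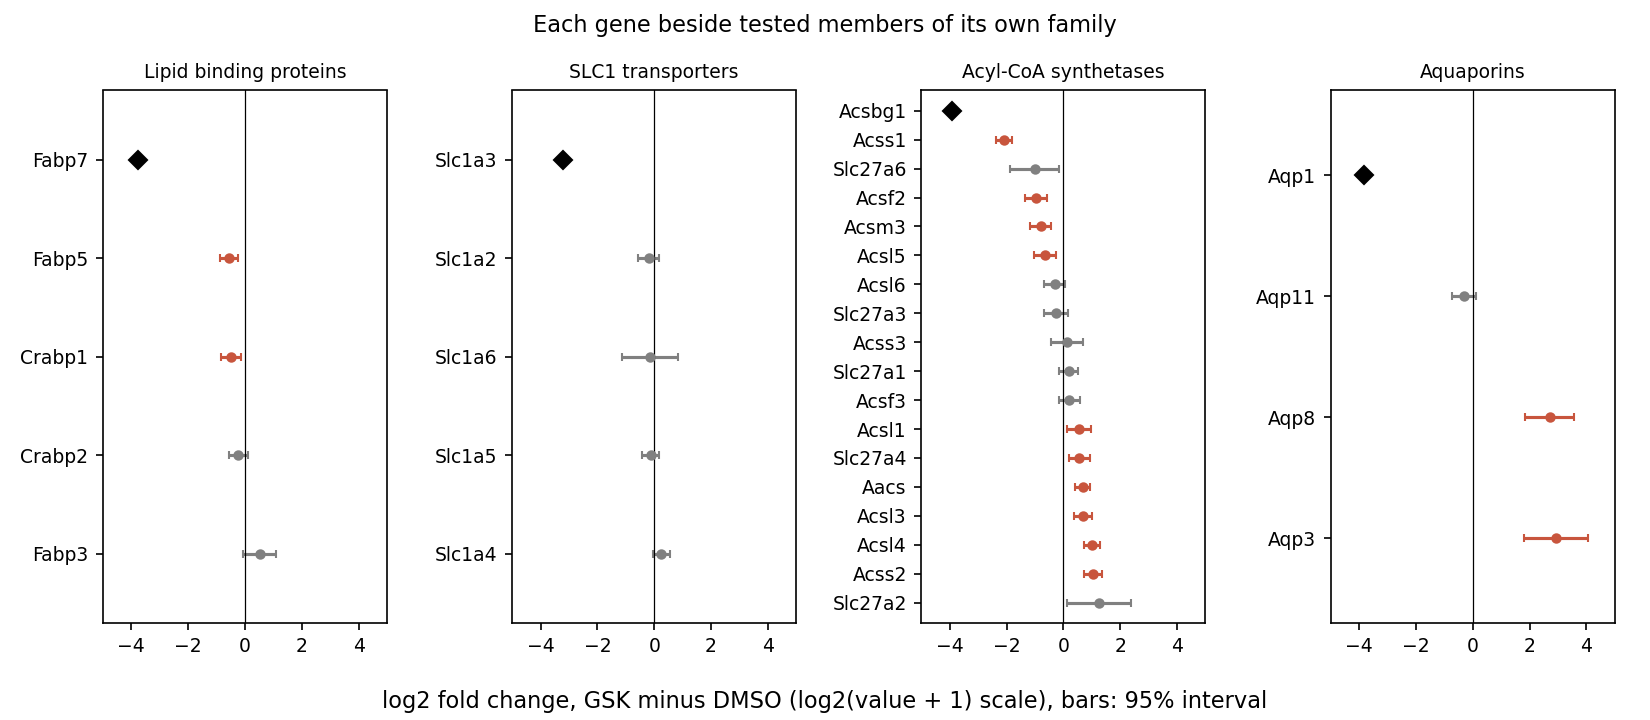
Log2 fold change, GSK minus DMSO, of each of the 4 genes beside tested members of its own family, with 95% intervals for the relatives (red, limma adjusted p below 0.05) and a black diamond for each of the 4. Relatives that are not reported here are left out, among them a relative of Fabp7 with a lower log2 fold change than Fabp5. Slc1a3 (-3.21) stands alone beside 4 relatives with intervals that include 0. Of the relatives shown, Fabp7 (-3.78) lies beyond Fabp5 (-0.56) and Acsbg1 (-3.92) beyond Acss1 (-2.09), and Aqp1 (-3.84) lies opposite to Aqp8 and Aqp3.

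Markers of astrocytes and later radial glia were divided between genes that fell and genes that were not called. Of 35 such genes other than the 4 described here, 29 were tested, 17 fell, 12 were not called and none rose (limma; 1 rose at an unadjusted p below 0.05, 0 by edgeR and 0 by DESeq2), and the median log2 fold change was -0.87. Without GSK replicate 1, 2 of them rose. Ptprz1, a receptor phosphatase gene of radial glia, fell from 3370 ± 260 to 669 ± 45.0 normalised reads (SD, n = 3; log2 fold change -2.33, limma adjusted p = 6.63e-11). Ednrb, the endothelin receptor B gene, fell with a log2 fold change of -2.45 (adjusted p = 4.42e-09), and the glial transcription factor gene Sox9 with one of -1.04 (adjusted p = 6.83e-06). Markers that were not called include Slc1a2 and Glul, described above, Dbi (log2 fold change 0.10, adjusted p = 0.619) and Aldoc (0.29, adjusted p = 0.341). The mature astrocyte genes Gfap, S100b and Aqp4 were too low to test, with 1.97 ± 1.17 normalised reads of Gfap in DMSO and 5.50 ± 2.66 in GSK libraries.

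Regulators known to act on Fabp7, Slc1a3 or other glial genes are described next. All 22 genes of this list were tested, 13 fell, 1 rose and the median log2 fold change was -0.52. The list shares genes with others, so their counts are not separate observations. Among those that fell, Hes5, Pax6, Notch1 and Sox2 are also early radial glial markers in the list below. Sox9 and Nfia are also among the glial markers above. Hes5, a direct target of Notch signalling, had 1936, 2364 and 2271 normalised reads in DMSO and 446, 555 and 717 in GSK libraries, and it fell with a log2 fold change of -1.96 (limma adjusted p = 8.06e-09). Pax6, the cortical transcription factor gene, fell from 1166 ± 100.0 to 446 ± 33.3 (log2 fold change -1.38, adjusted p = 5.70e-08). The receptor genes Notch3 (log2 fold change -1.33, adjusted p = 2.12e-07) and Notch1 (-1.22, adjusted p = 3.89e-07) fell as well, whereas the Notch ligand gene Dll1 rose. For factors whose motif was searched upstream of the 4 genes, the POU genes Pou3f3 (adjusted p = 3.19e-06) and Pou3f2 (adjusted p = 0.00468) fell, and Rbpj had a log2 fold change of -0.28 (adjusted p = 0.167, and 0.0256 without GSK replicate 1). Of the 4 nuclear factor I genes, Nfia fell with a log2 fold change of -0.52 (adjusted p = 0.00268). Nfib (-0.34, adjusted p = 0.0656), Nfix (-0.21, adjusted p = 0.576) and Nfic (0.11, adjusted p = 0.672) were not called. The POU, nuclear factor I and Rbpj genes were picked after their values were seen, as were Dbi and Aldoc.

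Cell type markers also differed between the groups, some lower in GSK like the 4 genes and others higher. Among the 16 early radial glial markers 13 fell and none rose (limma; 0 at an unadjusted p below 0.05, by edgeR and by DESeq2), with a median log2 fold change of -1.32, and without GSK replicate 1, 1 rose. The chromatin gene Hmga2 fell the most of them, from 2517 ± 117 to 337 ± 8.89 normalised reads (log2 fold change -2.90, limma adjusted p = 2.74e-12). Of 10 intermediate progenitor markers 8 rose, among them Eomes, which rose from 105 ± 26.4 to 250.2 ± 32.4. Of 14 neuron markers 7 rose and 1, Neurod6, fell, and their summed level was 8039 to 16141 normalised reads in DMSO and 23894 to 29135 in GSK libraries.

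Blood cell markers were higher in every GSK library. The 12 red blood cell markers summed to 2478 to 21092 normalised reads in DMSO and 187343 to 277835 in GSK libraries, and 10 of 11 tested rose. That count was 4 without DMSO replicate 1 or GSK replicate 1 and 3 without GSK replicate 2 or 3, while the groups did not overlap for any of the 11, a separation that 22.8% of all tested genes showed in the higher direction. Globin genes took 0.0268% to 0.234% of reads in DMSO and 2.22% to 2.91% in GSK libraries. Reads of genes overlapping ribosomal RNA took 20.2% to 21.6% in DMSO and 23.2% to 26.1% in GSK libraries, and mitochondrial genes took 0.519% to 0.697% and 0.892% to 1.08%. With equal library totals that leave out globin genes and genes overlapping ribosomal RNA, the log2 fold changes were -3.74 for Fabp7, -3.17 for Slc1a3, -3.88 for Acsbg1 and -3.80 for Aqp1. Aqp1 is itself a gene of red blood cells, and it was lower in the libraries where the red blood cell markers were higher. Which cells the Aqp1 reads came from was not tested.

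Of 11 tested microglia and macrophage markers 7 rose, with sums of 73.0 to 387 in DMSO and 671 to 1595 in GSK libraries. None of 5 tested endothelial markers passed the test (limma; 2 fell at an unadjusted p below 0.05, 1 by edgeR and 0 by DESeq2). Of 10 tested mesenchymal markers 3 fell, Vtn, Col3a1 and Col1a1, and 1 fell by DESeq2. Aqp1 is also known from choroid plexus. Of 13 tested markers of cortical hem and choroid plexus 4 rose and 3 fell, beside 17.0% higher and 19.1% lower over all tested genes. The choroid plexus genes Ttr and Kcne2 were too low to test. Of 3 tested oligodendrocyte lineage markers 1 fell, Mbp. The part of these cells, and of the ribosomal and mitochondrial reads, in the lower levels of the 4 genes was not tested.

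**Figure D4:**
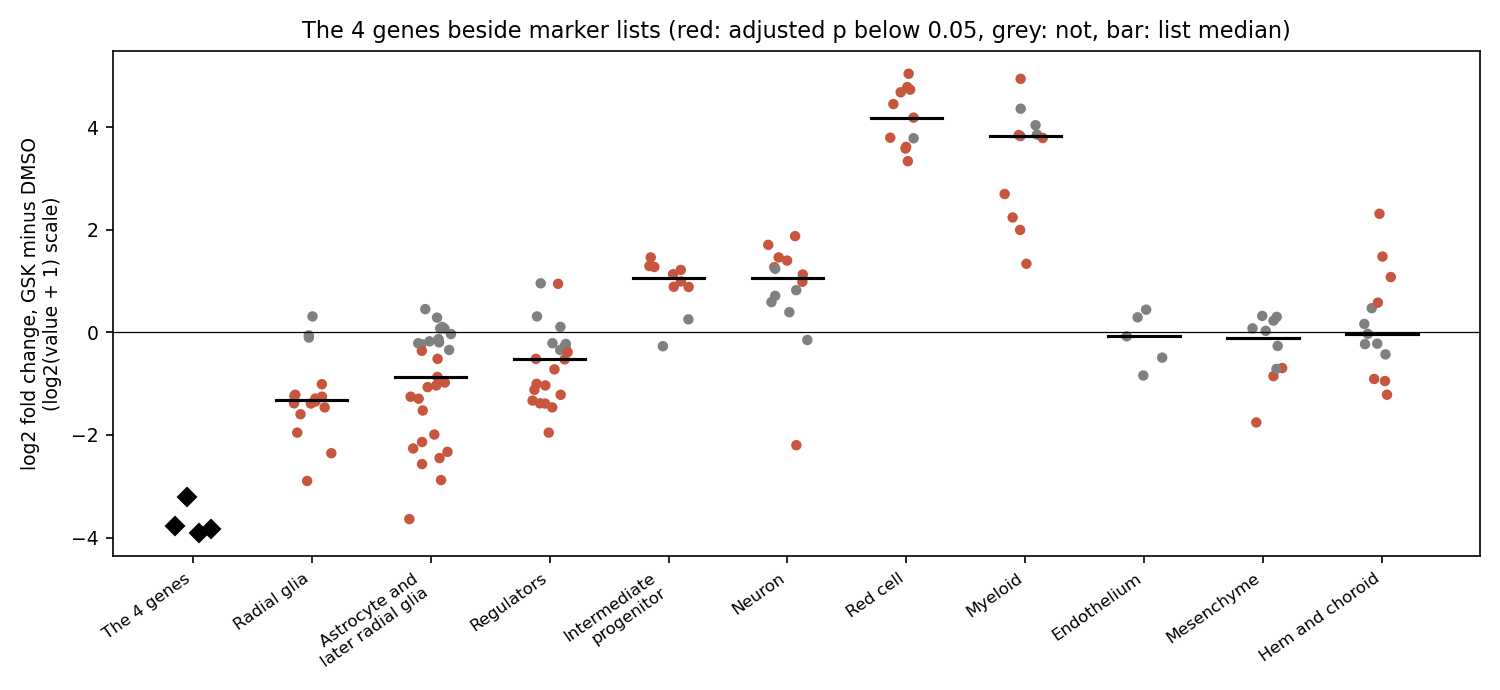
Log2 fold change, GSK minus DMSO, of the 4 genes beside the tested genes of the marker lists, with a bar at each list's median (red points have a limma adjusted p below 0.05). The radial glial markers have a median of -1.32 and the astrocyte and later radial glial markers one of -0.87, while the red blood cell markers have one of 4.18.

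The profile of each gene over the 6 libraries was compared with 9070 protein coding genes of a mean of at least 100, by the root mean square difference of log2(value + 1) profiles centred on their own mean. Adamts3, which encodes a procollagen processing protease, was nearest to Fabp7 (0.354), Acsbg1 (0.327) and Aqp1 (0.348) and was also among the 3 nearest to Slc1a3 (0.235). It had 240.1, 271 and 296 normalised reads in DMSO and 22.8, 25.7 and 19.1 in GSK libraries. Nearest to Slc1a3 were the histone gene H2ac4 (0.158), whose reads may be split with near-identical copies, and Nrarp (0.210), a Notch target gene. Fabp7 and Acsbg1 differed from each other by 0.265, and no candidate was closer to either. Since the measure is set mostly by the size of the difference between the groups, it gives little on the order of libraries within a group.

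The tested genes next to Fabp7, Acsbg1 and Aqp1 on the chromosome differed far less. Since the 4 were selected on very low fold changes, this contrast was largely fixed by the choice. Idh3a, which encodes a subunit of mitochondrial isocitrate dehydrogenase and ends 215 bases from the end of Acsbg1, fell from 791 ± 25.04 to 574 ± 62.9 normalised reads (log2 fold change -0.47, limma adjusted p = 0.00713). Mindy4, 16.2 kb from Aqp1, fell with a log2 fold change of -0.86 (adjusted p = 0.000644). Smpdl3a, 5.88 kb from Fabp7, fell with one of -0.77 (adjusted p = 0.0157, and 0.0640 without GSK replicate 2). Dnaja4, on the other side of Acsbg1, had a log2 fold change of 1.14 (adjusted p = 0.0399), which did not pass the test without DMSO replicate 1 or 2 or GSK replicate 1 (0.0764 to 0.218). Pkib, 43.8 kb from Fabp7, was not called, at a log2 fold change of 0.29 (adjusted p = 0.634), and the neighbours of Slc1a3 were too low to test. No annotated gene shared exon bases with any of the 4, so their reads are not mixed with those of an overlapping exon in the annotation.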

How the data were processed

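The deposited table holds the authors' normalised read counts, a linear signal of reads per gene divided by a size factor per library. STAR, DESeq and the builds GRCm38 and mm10 are named, per the submitters' processing notes, without versions or settings. Rows repeated per transcript were reduced to 1 per gene (118098 rows, 32285 genes). Dividing by the value of 1 read gave whole reads for 100% of values within 0.01, so depth was recovered as 7187089 to 10224348 reads per library. That number limits the precision of low values.

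Genes averaging 10 or more over the 6 libraries (15073) were tested on log2(value + 1) with limma 3.58.1 in R 4.3.3 (trended and robust priors, Benjamini-Hochberg adjusted p below 0.05), in all 6 libraries without covariates. The scripts were tested on simulated data. Coordinates, exon lengths and neighbours are from GENCODE vM21 (GRCm38), matched for 32158 genes. Alternatives were edgeR 4.0.16 and DESeq2 1.42.0 on recovered reads, other scalings, filters and pseudocounts, a replicate block, and leaving out each library.

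The 4 genes and all lists were chosen with earlier results of these data known. Named genes are a fixed set, up to 4 called genes per list by adjusted p (up to 2 of highest mean where fewer than 3 were called), the 3 genes of nearest profile and the nearest protein coding neighbours. Where 5 or fewer genes of a list rose or fell, others were named after their values were seen. A few genes counted in the lists are not reported by name here. A fold change on the log2(value + 1) scale understates the change of low genes.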

Additional observations from a re-analysis of the deposited data

How the results depend on the processing

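The log2 fold changes of the 4 genes kept their sign under all 16 alternatives, and 62 of 64 values moved by less than the spread between replicates. Since the 4 were selected on very low fold changes, their sign was largely fixed by the choice. The filters and the replicate block cannot move these log2 fold changes, so the values under those settings are no check. With a pseudocount of 10, Acsbg1 was at -3.39 and Aqp1 at -3.32. Leaving out each library in turn gave -3.95 to -3.58 for Fabp7, -3.36 to -3.003 for Slc1a3, -4.09 to -3.74 for Acsbg1 and -4.10 to -3.66 for Aqp1. Over all genes, leaving out a library gave 1734 to 3062 higher and 2238 to 3236 lower. Equal library totals gave 2053 higher and 3268 lower, against 2563 and 2883, and no scaling moved the median of all genes by more than 0.1.

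Of the list counts, 565 stayed within 1.5 times the reported count and 43 did not. With a mean of at least 100, 1 glutamate gene rose and 3 fell, 0 aquaporins rose, 4 ion and volume genes fell, 1 myeloid marker rose, and 0 neuron, 0 hem and choroid plexus and 0 oligodendrocyte markers fell, since fewer genes are tested. With equal totals, 8 glutamate genes, 1 intermediate progenitor marker and 1 endothelial marker fell. Leaving globin and ribosomal RNA genes out of the totals, 3 glutamate genes, 1 elongation gene and 1 mesenchymal marker fell and 2 regulators rose. With no filter, 2 regulators and 6 red blood cell markers rose and 2 oligodendrocyte markers fell. With edgeR or a pseudocount of 10, 1 endothelial marker fell, and with DESeq2 1 mesenchymal marker fell. The cause was not tested for settings other than the filter.

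Leaving out a library in turn, 2 to 5 glutamate genes, 1 to 2 elongation genes, 0 to 1 PPAR genes, 2 to 5 mesenchymal and 1 to 4 hem and choroid plexus markers fell, while 0 to 2 glial markers, 1 to 2 regulators, 0 to 1 radial glial, 3 to 11 red blood cell and 2 to 4 hem and choroid plexus markers rose. Of 88 named genes tested, 75 kept their direction and side of the threshold throughout. Glul, not called, changed sign: it was at 0.0066 without globin and ribosomal RNA genes in the totals and at -0.16 to 0.076 leaving out a library in turn.

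No pairing by replicate number was seen: same-numbered DMSO and GSK libraries had correlations of 0.0131, -0.0236 and 0.0529 over 15073 genes. Not every library correlated best with its own number. With 3 libraries per group and many low genes, such correlations cannot exclude a shared culture, litter or sort. With the replicate number as a block, 2662 genes were higher and 2980 lower, 2 regulators, 11 neuron markers and 3 red blood cell markers rose, and Car2 and Hbb-y no longer passed the test. The log2 fold changes with the block stayed at -3.78 for Fabp7, -3.21 for Slc1a3, -3.92 for Acsbg1 and -3.84 for Aqp1. They had to, because each replicate number occurs once in each group.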

Other observations

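A further 3 genes among the 20 lowest log2 fold changes of the 15073 tested genes are given here, chosen after their values were seen. Gjb6, which encodes connexin 30, a gap junction protein of astrocytes, averaged 19.7 ± 6.58 normalised reads under DMSO against 0.686 ± 0.604 under GSK (SD, 3 libraries each), with a limma adjusted p of 0.000141. Ano1, a calcium-activated chloride channel gene, averaged 177 under DMSO against 18.9 under GSK, and its log2 fold change was -3.57. Sorcs1, a sorting receptor gene, fell from 240 ± 43.1 to 21.3 ± 7.97, with a log2 fold change of -3.49 and a limma adjusted p of 3.02e-09.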
